A study of Mus musculus with 12 samples.

Results

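Macrophages can act on neighbouring cells through secreted growth factors, and 10 genes that encode such factors were followed here: Igf1, Hgf, Pdgfb, Pdgfc, Vegfa, Vegfb, Tgfb1, Bmp2, Osm and Csf1. They were chosen by name, with earlier results of these data known, as candidate signals from macrophages to the bone marrow niche. Each matched 1 Ensembl identifier among the 56953 genes of the deposited tables. RNA came from myeloid cells sorted from the bone marrow of 8-week-old female C57BL/6J mice in which a Cre recombinase expressed from the Rank locus (Rank cre/+; R26.eYFP fl/+) marks macrophages of embryonic descent with eYFP. The 12 libraries fall into 4 groups of 3: eYFP+ macrophages (embryonic), eYFP- macrophages (derived from adult hematopoietic stem cells), Ly6Chi monocytes and Ly6Clo monocytes. Macrophages were gated as F4/80hi CD206+ VCAM1+ cells, and all groups carry the same reporter alleles. The eYFP label stands for origin only as far as the Rank locus drove Cre in the precursors of 1 origin and not of the other. Whether a library holds 1 mouse or several is not stated, so the p-values below measure the spread between these libraries, which may be technical. Total counts ran from 26390927 to 48618187 per library. Summed marker levels followed the labels. The 8 macrophage markers summed to at least 13897 TPM in every macrophage library and at most 2572 TPM in any monocyte library. Among them, Adgre1, Mrc1 and Vcam1 encode the sorted proteins F4/80, CD206 and VCAM1, so this sum is no independent check of the sort. Csf1r, in the same list, was not higher in macrophages. The 6 Ly6Chi monocyte markers summed to at least 11890.1 TPM in Ly6Chi and at most 718 TPM elsewhere. They include Ly6c2, for the Ly6C of the sort. The 6 Ly6Clo monocyte markers were highest in Ly6Clo libraries, at 2413 to 2489 TPM, but reached 1282 to 1683 TPM in macrophage libraries. Of these, Fabp4 had a higher mean in both macrophage groups than in Ly6Clo monocytes.

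Growth factors leave the cell that makes them, bind receptors on a target cell and change its growth, survival or differentiation. IGF1 acts through the receptor tyrosine kinase IGF1R, HGF through MET, the PDGF dimers through PDGFRA and PDGFRB, and the VEGF proteins through FLT1 and KDR. TGF-beta and BMP2 signal through pairs of serine/threonine kinase receptors, oncostatin M through IL6ST with OSMR, and CSF1 through CSF1R on macrophages themselves. In the marrow, such factors reach stromal cells, endothelium and blood-forming cells.

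Sequences upstream of the genes are shown for 4 members that differ in where they were expressed, as context for the levels below. RefSeq (GRCm38.p6) promoter windows were found for 7 of the 10 members and not used for Pdgfb, Bmp2 and Osm. The 250 bases before the start were searched on both strands for 5 short motifs and compared with 32817 RefSeq windows of the same length. The core GAGGAA of PU.1 and other ETS factors occurred in 23.3% of those windows. The AP-1 motif TGANTCA occurred in 6.75%, and the hypoxia response core ACGTG in 16.6%. The GC box GGGCGG occurred in 32.7%, and the TATA box motif TATAAA in 12.4%. Capitals mark matches on either strand. Igf1 had 1 GAGGAA and 1 TGANTCA, and the 30 bases that hold them, from 60 to 31 bases before the start, lie at chr10:87861051-87861080 on the plus strand. Its window overlaps an annotated UTR, and the rest of it is not shown. Whether the 30 bases themselves lie in the UTR was not checked. Pdgfc, at chr3:81036166-81036415 on the plus strand, held none of the 5 motifs. Hgf, at chr5:16553245-16553494 on the plus strand, held 1 GAGGAA on the other strand. Another Hgf window, at chr5:16553651-16553900, also held 1 GAGGAA, but it overlaps an annotated UTR and is not shown. Vegfb, at chr19:6987652-6987901 on the minus strand, held 4 GC boxes, 2 of them directly adjoining. A match is a run of letters, not a bound site.
Igf1: GAGGAAgggaaggagctggaactTGAATCA
Pdgfc: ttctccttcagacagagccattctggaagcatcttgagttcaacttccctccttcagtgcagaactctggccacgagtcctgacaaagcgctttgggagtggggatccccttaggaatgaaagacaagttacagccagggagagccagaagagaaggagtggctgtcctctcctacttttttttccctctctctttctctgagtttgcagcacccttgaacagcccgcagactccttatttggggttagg
Hgf: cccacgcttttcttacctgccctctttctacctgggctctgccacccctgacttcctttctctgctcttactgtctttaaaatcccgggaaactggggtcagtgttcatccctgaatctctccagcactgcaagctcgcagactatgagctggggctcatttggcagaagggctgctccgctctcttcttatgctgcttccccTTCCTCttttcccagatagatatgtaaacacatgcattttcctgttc
Vegfb: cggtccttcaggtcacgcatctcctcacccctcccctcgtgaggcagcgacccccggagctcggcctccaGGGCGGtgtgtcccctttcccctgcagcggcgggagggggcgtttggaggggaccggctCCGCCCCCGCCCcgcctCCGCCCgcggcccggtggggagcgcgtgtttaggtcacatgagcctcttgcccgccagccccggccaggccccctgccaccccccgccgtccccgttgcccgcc

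Levels of different genes were compared as TPM, counts per gene length scaled to the same total in every library. Igf1 was the highest of the 10 genes in every macrophage library, with 359.6, 306 and 295 TPM in the eYFP+ and 206, 273 and 211 TPM in the eYFP- libraries. It made up between 63.3% and 77% of the summed TPM of the 10 genes there. In the mean it ranked 450 among all genes in eYFP+ and 668 in eYFP- macrophages. Pdgfc followed with 69 to 82.1 TPM in eYFP+ and 49.5 to 61.7 TPM in eYFP- macrophages, and Bmp2 with means of 31.7 and 28.2 TPM. The next genes, Pdgfb, Vegfb, Tgfb1 and Osm, had means between 4.99 and 9.43 TPM in both macrophage groups, and Hgf and Csf1 had means between 1 and 2.02 TPM. In monocytes the order was different. Osm was the highest member in all 3 Ly6Chi libraries, with 5.78 to 8.01 TPM, and Hgf in all 3 Ly6Clo libraries, with 5.8 to 12.1 TPM. The 10 genes summed to 451 to 467 TPM in eYFP+ macrophages, 307 to 403 TPM in eYFP- macrophages, 19.2 to 20.9 TPM in Ly6Chi monocytes and 22.4 to 34.3 TPM in Ly6Clo monocytes. At least 1 TPM in every library was reached by 8 genes in each macrophage group, by 4 in Ly6Chi and by 5 in Ly6Clo monocytes.

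**Figure D1:**
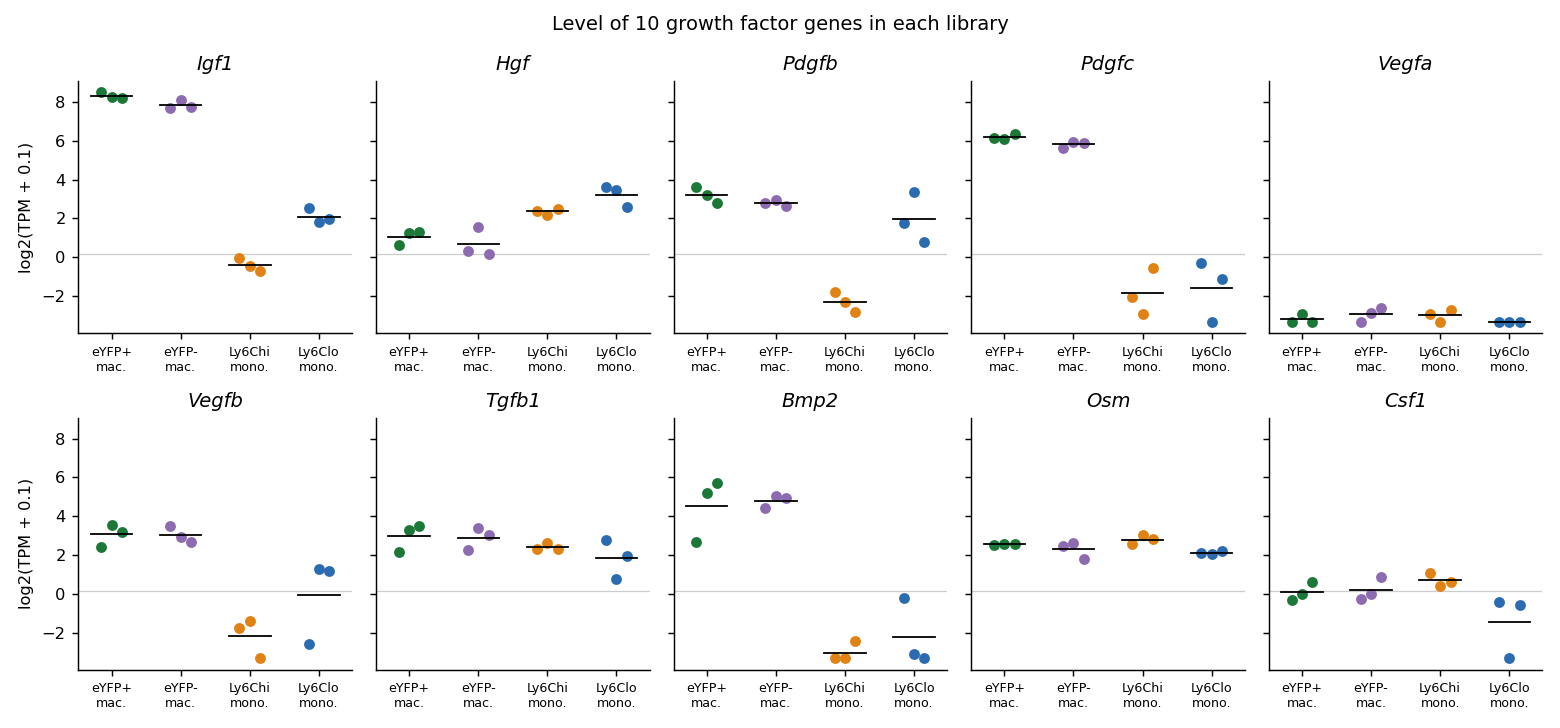
Level of each of the 10 growth factor genes as log2(TPM + 0.1), 1 point per library and a black bar at the mean of the 3 libraries of a group; the grey line marks 1 TPM. Igf1 and Pdgfc separate macrophages from monocytes, Hgf runs the other way, and Vegfa lies near the floor in all 12 libraries.

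Macrophages of both origins were compared with both monocyte groups to ask which factors macrophages express above monocytes. Values from here on are normalized counts (counts scaled by size factors) unless TPM is named, and log2 fold changes come from 1 DESeq2 fit over the 12 libraries with an adjusted p under 0.05 as the call. Of the 9 members tested, 6 were called, 5 higher and 1 lower in macrophages, where 20.7% of all tested genes were called higher and 15.3% lower. Normalized counts of 5 members (Igf1, Pdgfc, Vegfb and Bmp2 higher, Hgf lower) did not overlap between the cell types, against 18.0% of tested genes. The median log2 fold change was 3.32 over the 9 members and 0.0782 over all tested genes. Because the members were chosen with earlier results of these data known, such shares and medians, here and below, are not an independent test. Igf1, Pdgfc, Pdgfb, Vegfb and Bmp2 were higher in macrophages, Hgf was lower, and Tgfb1, Osm and Csf1 did not pass. In bulk RNA, fewer cells of a type and less RNA per cell cannot be told apart. Markers of other cell types were also higher in the macrophage libraries, without overlap: the 8 megakaryocyte and platelet markers summed to 122 to 202 TPM against 2.21 to 78.9 TPM in monocytes, the 8 erythroid markers to 7587 to 31129 TPM against 298 to 1186 TPM, and the 6 B cell markers to 456 to 701 TPM against 28.3 to 139.7 TPM. Of these markers, Gp1bb was at 0 in every eYFP+, Ly6Chi and Ly6Clo library, and Treml1 and Ms4a1 in every Ly6Clo library. Their part in the 5 members that were higher in macrophages was not tested.

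Igf1 (ENSMUSG00000020053), the main insulin-like growth factor, had 54875, 40993 and 37719.9 normalized counts in eYFP+ macrophages and 30376, 33324 and 28640.3 in eYFP- macrophages. Ly6Chi monocytes had 128, 89.9 and 75.3, and Ly6Clo monocytes 781, 518 and 555. All 6 macrophage libraries lay far above all 6 monocyte libraries, a 150-fold difference (log2 7.23 ± 0.22, SE; DESeq2 adjusted p = 5.33e-241). Going down from eYFP+ macrophages, the neighbours eYFP+ and eYFP- did not pass the test, while the steps from eYFP- macrophages to Ly6Clo monocytes (log2 5.64 ± 0.30) and from Ly6Clo to Ly6Chi monocytes (2.66 ± 0.31) did. Among 12935 genes compared, the pattern over the 12 libraries closest to that of Igf1 was found in Cd55, Gm13710, Spic, Cd163 and Slc40a1. Their root mean square differences from Igf1 in centred log2(normalized count + 1) ran from 0.50 (Cd55) to 0.59 (Slc40a1), against a median of 3.78. Spic is a transcription factor of red pulp and marrow macrophages, Cd163 a hemoglobin scavenger receptor and Slc40a1 the iron exporter ferroportin. Pdgfc and Bmp2 were farther from Igf1, at 1.84 and 1.89.

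Pdgfc (ENSMUSG00000028019), a ligand of PDGFRA, had 5439, 4612 and 5253 normalized counts in eYFP+ and 3649, 3757 and 3931 in eYFP- macrophages. Monocytes had between 2.43 and 42.5 in Ly6Chi and between 0 and 48.4 in Ly6Clo libraries. The log2 fold change against monocytes was 7.67 ± 0.63 (SE; DESeq2 adjusted p = 7.35e-32), and it was 8.40 without Ly6Chi replicate 3, the monocyte library of that group with the most Pdgfc. Pdgfc shares a stretch of exon with the antisense gene Gm16000 in the GENCODE M21 annotation, and without a stated strand setting reads of these genes cannot be told apart.

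Bmp2 (ENSMUSG00000027358), a bone morphogenetic protein that drives osteoblast formation, had 484, 2502 and 3351 normalized counts in eYFP+ and 1608, 2003 and 2077 in eYFP- macrophages. It had 0, 0 and 6.07 in Ly6Chi and 51.8, 1.34 and 0 in Ly6Clo monocytes. The lowest macrophage library lay above the highest monocyte library, with a log2 difference of 8.39 ± 1.27 (SE; DESeq2 adjusted p = 4.28e-10). Monocytes held few Bmp2 reads, and leaving out 1 library moved this value: it was 10.86 without Ly6Clo replicate 1 and 10.01 without Ly6Chi replicate 3. DESeq2 gave Bmp2 no adjusted p when any eYFP+ library was left out, so its calls went untested in those 3 fits. In eYFP+ replicate 1, the low library, GC-rich genes were low as a class, with a median log2 ratio of -0.532 to the other libraries over 2913 genes; its part in the Bmp2 value was not tested.

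Pdgfb (ENSMUSG00000000489), the ligand that recruits pericytes, and Vegfb (ENSMUSG00000024962), a ligand of FLT1, differed less. Pdgfb had 783, 507 and 370.1 normalized counts in eYFP+ macrophages, 422, 389.7 and 342 in eYFP- macrophages, 11.7, 6.07 and 2.43 in Ly6Chi monocytes and 187, 662 and 98.5 in Ly6Clo monocytes. It was higher in macrophages (log2 fold change 3.32 ± 0.49, SE; DESeq2 adjusted p = 1.13e-10), yet Ly6Clo replicate 2 lay within the macrophage range. Against Ly6Clo monocytes alone, Pdgfb did not pass in eYFP+ (0.81 ± 0.64, DESeq2 adjusted p = 0.39) or eYFP- macrophages (0.29 ± 0.64, adjusted p = 0.799). Without Ly6Clo replicate 2 both passed, at 1.90 (adjusted p = 1.79e-04) and 1.38 (adjusted p = 0.0106). GC-rich genes were low in that library as a class, with a median log2 ratio of -0.982, whereas Pdgfb, at 60.0% GC in its longest transcript, was high; under a correction for GC content the values became -0.23 and -1.18 and did not pass.

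Vegfb had 145, 286 and 212 normalized counts in eYFP+ macrophages, 307, 165 and 154 in eYFP- macrophages, 5.3, 7.29 and 0 in Ly6Chi monocytes and 1.7, 65.6 and 56.9 in Ly6Clo monocytes. Every macrophage library lay above every monocyte library, with a log2 difference of 4.0 ± 0.66 (SE; DESeq2 adjusted p = 1.29e-08). Against Ly6Clo monocytes alone the difference was 2.38 ± 0.88 in eYFP+ (DESeq2 adjusted p = 0.0303, edgeR adjusted p = 0.0982) and 2.34 ± 0.88 in eYFP- macrophages (DESeq2 adjusted p = 0.0335, edgeR adjusted p = 0.104). Leaving out eYFP+ replicate 2 or 3 ended the first call (adjusted p = 0.139 and 0.0911). Leaving out eYFP+ replicate 3 or any eYFP- library ended the second, with adjusted p from 0.0509 to 0.169. Under a correction for GC content, with Vegfb at 62.6% GC, the values became 1.24 (adjusted p = 0.376) and 0.93 (adjusted p = 0.528).

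Hgf (ENSMUSG00000028864), the ligand of MET and a survival factor for epithelial and blood-forming cells, was the 1 member higher in monocytes. It had 109, 147 and 150.2 normalized counts in eYFP+ and 83.1, 172 and 68.6 in eYFP- macrophages, against 365, 322 and 402 in Ly6Chi and 819.9, 824 and 419 in Ly6Clo monocytes. The lowest monocyte library lay above the highest macrophage library, and Hgf was lower in macrophages (log2 fold change -2.05 ± 0.30, SE; DESeq2 adjusted p = 1.21e-10). Each macrophage group differed from each monocyte group, with log2 fold changes from -2.67 to -1.42. The 8 neutrophil and precursor markers summed to 120.3 to 2547 TPM in macrophage and 6725 to 23649 TPM in monocyte libraries, with none at 0 in every library of a group. Within this list, S100a8, S100a9, Ngp, Camp, Ltf and Retnlg were lower in macrophages, while Mpo (log2 fold change 0.58, DESeq2 adjusted p = 0.413) and Elane (-1.27, adjusted p = 0.449) did not pass. Between the monocyte subsets the sums were 15548 to 23649 TPM in Ly6Chi and 6725 to 15911 TPM in Ly6Clo libraries, where Hgf had 4.49 to 5.58 TPM and 5.8 to 12.1 TPM. Ly6Clo replicate 1 had the highest sum of its group and the most Hgf in TPM, and Ly6Clo replicate 2 the lowest sum and 10.9 TPM of Hgf. The part of these transcripts in the level of Hgf was not tested. Hgf shares exon sequence with the predicted gene Gm43489 on the same strand in GENCODE M21, and whether this took reads from the Hgf counts was not tested.

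Tgfb1, Osm and Csf1 were expressed in both cell types and did not pass. Tgfb1 (ENSMUSG00000002603), which the cell releases in a latent form, ranged from 208 to 439 in macrophages and from 75 to 289 in monocytes, a log2 difference of 0.68 ± 0.35 (SE; 95% interval -0.01 to 1.36; DESeq2 adjusted p = 0.124). It passed at 0.94 (adjusted p = 0.0172) without Ly6Clo replicate 1, the monocyte library with the most Tgfb1. Without that library Tgfb1 also passed against Ly6Clo monocytes alone, in eYFP+ (1.5, adjusted p = 0.0123) and eYFP- macrophages (1.34, adjusted p = 0.0293). Osm (ENSMUSG00000058755), an IL-6 family cytokine, ranged from 146 to 276 and from 184 to 376, with a difference of -0.11 ± 0.21 (95% interval -0.53 to 0.30). Csf1 (ENSMUSG00000014599), the growth factor on which macrophages depend, had 62.8 to 137 in macrophages and 0 to 174 in monocytes, with a difference of 0.32 ± 0.58 (95% interval -0.82 to 1.46). Vegfa (ENSMUSG00000023951), the main angiogenic VEGF, had at most 5 reads in any library and 0 in all 3 Ly6Clo libraries. It was filtered out before adjustment in each comparison, and neither a fold change nor a call is given for it.

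Taken group by group, 6 of 9 members were called in each macrophage group against Ly6Chi monocytes and 5 of 9 in each against Ly6Clo monocytes. The share of all tested genes was 28.7% for eYFP+ and 25.5% for eYFP- macrophages against Ly6Chi, and 26.1% and 26.8% against Ly6Clo monocytes. These comparisons share libraries. Igf1, Hgf, Pdgfc, Vegfb and Bmp2 were called in all 4, and Pdgfb only against Ly6Chi monocytes (6.35 ± 0.73 in eYFP+ and 5.82 in eYFP- macrophages; 7.02 and 6.49 without Ly6Chi replicate 1). Igf1 stood 8.83 ± 0.31 (SE) above Ly6Chi monocytes in eYFP+ macrophages and 8.29 in eYFP- macrophages on the log2 scale.

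**Figure D2:**
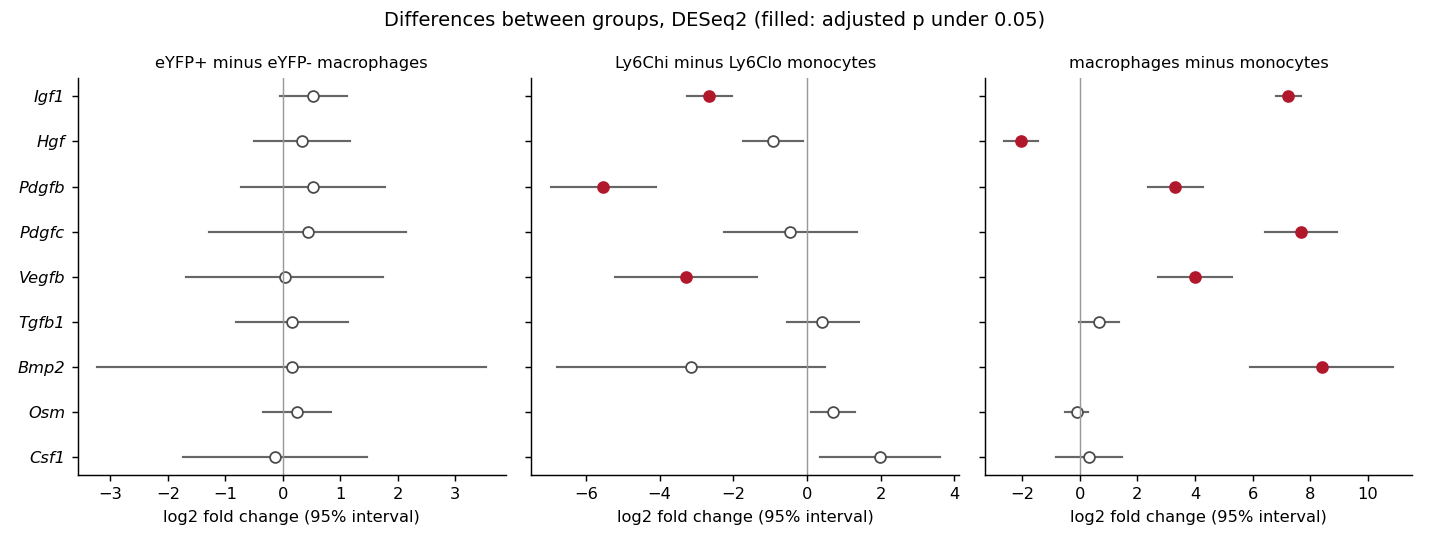
Log2 fold change of 9 members (points) with the 95% interval (lines) in the 3 main comparisons from the DESeq2 fit; filled points have an adjusted p under 0.05, and Vegfa is left out for want of reads. No point is filled between macrophage origins, 3 are filled between monocytes and 6 between macrophages and monocytes.

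The central comparison of the design was that of macrophage origins. None of the 9 tested members differed between eYFP+ and eYFP- macrophages, where 2.07% of all tested genes were called by DESeq2 and 0.334% by edgeR's quasi-likelihood test. At an unadjusted p under 0.05 the count was 0 of 9 in both tools, against 4.56% of all genes with a DESeq2 p and 7.42% with an edgeR p. The median log2 fold change of the members was 0.246, against 0.047 for all tested genes. Igf1 came nearest to a difference, with all 3 eYFP+ libraries above all 3 eYFP- libraries and a log2 fold change of 0.53 ± 0.30 (SE; 95% interval -0.05 to 1.12; DESeq2 adjusted p = 0.677, edgeR adjusted p = 0.766). Pdgfc was the only other member without overlap, also higher in eYFP+ libraries, at 0.43 ± 0.88 (95% interval -1.29 to 2.15; DESeq2 adjusted p = 1). These are 2 of 9 members, and 15.3% of tested genes did not overlap between the origins, 6.73% with eYFP+ higher. Within same-numbered pairs of libraries, Igf1, Pdgfc, Pdgfb and Osm were higher in eYFP+ in all 3 pairs. Hgf, Vegfb, Tgfb1 and Bmp2 were higher in 2 pairs and Csf1 in 1. The share of all genes with such signs was not determined. With the replicate number as a block in DESeq2, Igf1 had an adjusted p of 0.71. For Bmp2, Vegfb, Csf1 and Pdgfc the 95% intervals reach beyond a log2 difference of 1 in both directions, so the 3 libraries per group do not bound these differences closely.

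The summed levels of 6 of the 9 marker lists did not overlap between the origins. The 8 macrophage markers (Adgre1, Mrc1, Vcam1, Csf1r, Cd5l, Siglec1, Cd163 and Mertk) summed to 18075 to 21580.1 TPM in eYFP+ and 13897 to 16516 TPM in eYFP- libraries, without overlap, but none of the 8 passed the test. On the log2 scale Cd163 differed by 0.72 ± 0.42 (SE), with a DESeq2 adjusted p of 0.728, and Mrc1 by 0.95 ± 0.50, with an adjusted p of 0.608, while Csf1r and Cd5l stood at 0.13 and 0.27. The 8 erythroid markers, which include both alpha globin genes and Klf1, ran the other way, from 7587 to 13045 TPM in eYFP+ and from 18956 to 31129 TPM in eYFP- libraries. The 8 neutrophil markers summed to 120.3 to 206 TPM against 208 to 2547 TPM, and the 9 stromal and endothelial markers to 49.7 to 58.9 TPM against 90.8 to 119 TPM. The 6 T and NK cell markers summed to 3.56 to 15.3 TPM in eYFP+ and 20 to 47.6 TPM in eYFP- libraries, and the 6 Ly6Chi monocyte markers to 8.19 to 8.84 TPM and 9.99 to 120.4 TPM. No gene of these 6 lists was at 0 in every library of either macrophage group. The part of these transcripts in the level of Igf1 or Pdgfc was not tested.

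**Figure D3:**
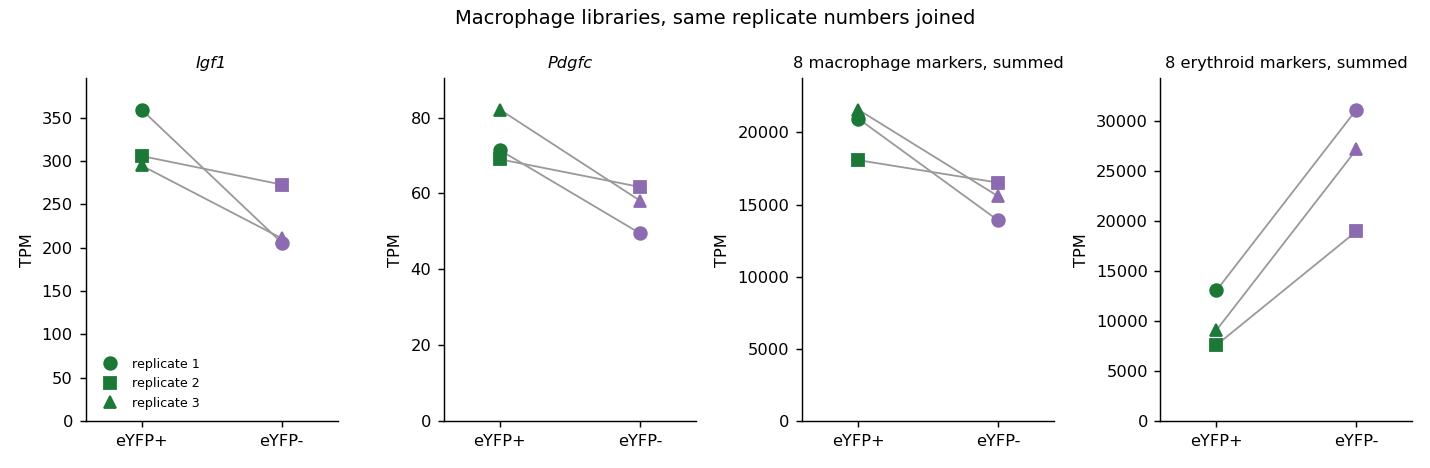
TPM of Igf1, of Pdgfc, of 8 macrophage markers (summed) and of 8 erythroid markers (summed) in the 3 eYFP+ and 3 eYFP- macrophage libraries, with libraries of the same replicate number joined by a line; all axes start at 0. Igf1, Pdgfc and the macrophage markers are higher in the eYFP+ library of each number and the erythroid markers lower.

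Between the monocyte subsets, DESeq2 called Igf1, Pdgfb and Vegfb, 3 of 9 members, all lower in Ly6Chi than in Ly6Clo monocytes, where 8.82% of all tested genes were called and 5.08% were lower. edgeR called 2 of them, against 4.32% of all genes it tested. The median log2 fold change was -0.921 over the members and 0.014 over all tested genes. Igf1 was lower by 2.66 on the log2 scale (log2 fold change -2.66 ± 0.31, SE; DESeq2 adjusted p = 6.40e-15, edgeR adjusted p = 3.63e-04), and Pdgfb by 5.53 (-5.53 ± 0.73; DESeq2 adjusted p = 5.48e-12, edgeR adjusted p = 0.00218). In both genes every Ly6Clo library lay above every Ly6Chi library. Without Ly6Clo replicate 2, the highest, the Pdgfb value was -4.38, and without Ly6Chi replicate 1 it was -6.21. Vegfb was called at -3.29 ± 0.98 (DESeq2 adjusted p = 0.0141) but not by edgeR (adjusted p = 0.139), its groups overlapped, and the call was lost without Ly6Chi replicate 3 (adjusted p = 0.0897), Ly6Clo replicate 2 (0.056) or Ly6Clo replicate 3 (0.0605). Without Ly6Chi replicate 2 the Vegfb value was -3.92.

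The other members did not pass between monocytes. Hgf was higher in each Ly6Clo library (-0.92 ± 0.42, DESeq2 adjusted p = 0.17), and Osm (0.71 ± 0.30, adjusted p = 0.133) and Csf1 (1.98 ± 0.82, adjusted p = 0.121) were higher in each Ly6Chi library. In all, 5 members did not overlap between the subsets, where 28.3% of tested genes did not. Csf1 had 174, 107 and 123 normalized counts in Ly6Chi and 52.6, 0 and 48.8 in Ly6Clo monocytes, and passed at 1.41 (adjusted p = 0.0398) without Ly6Clo replicate 2, the library at 0. Bmp2 changed sign between fits: it was -3.15 ± 1.85 with all libraries, 1.74 without Ly6Clo replicate 1 and -3.76 (adjusted p = 0.0331) without Ly6Clo replicate 3. Pdgfc and Tgfb1 had log2 fold changes of -0.45 ± 0.92 and 0.42 ± 0.50.

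Macrophage transcripts were present at low levels in monocytes and moved along with Igf1 between the subsets. Relative to the mean of the macrophage libraries, Igf1 stood at 1.64% in Ly6Clo and 0.26% in Ly6Chi monocytes. The macrophage markers Mrc1 (2.86% and 0.803%), Cd163 (1.59% and 0.374%), Mertk (1.24% and 0.345%), Cd5l (0.628% and 0.187%) and Vcam1 (0.603% and 0.154%) had the same order, with Ly6Clo above Ly6Chi. Adgre1 and Csf1r, which monocytes also express, were at 38.8% and 131% in Ly6Clo, and Siglec1 ran the other way, at 3.52% in Ly6Clo and 9.86% in Ly6Chi. Vcam1, Mrc1, Cd5l and Cd163 were lower in Ly6Chi by 1.97, 1.83, 1.75 and 2.09 on the log2 scale (log2 fold changes -1.97 ± 0.40, -1.83 ± 0.50, -1.75 ± 0.30 and -2.09 ± 0.43, SE). The summed macrophage markers came to 1311 to 1480.1 TPM in Ly6Chi and 635 to 2572 TPM in Ly6Clo libraries, and none of the 8 was at 0 in either group. Pdgfb stood at 1.43% of the macrophage level in Ly6Chi and 67.3% in Ly6Clo monocytes, where single libraries ranged from 21% to 141%; without Ly6Clo replicate 2 the value was 30.4%. Megakaryocyte and platelet markers, a lineage known for PDGF-B, summed to 63.9 to 78.9 TPM in Ly6Clo and 2.21 to 4.57 TPM in Ly6Chi libraries, with Gp1bb at 0 in both groups and Treml1 at 0 in Ly6Clo. Among these markers, Pf4 (means of 804 and 17.2 normalized counts) and Vwf (499 and 51.3) were higher in Ly6Clo, while Ppbp (4.18 and 13.5) and Gp9 (8.18 and 14.7) had higher means in Ly6Chi and did not pass. The part of macrophage or megakaryocyte transcripts in the Igf1 and Pdgfb differences was not tested.

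**Figure D4:**
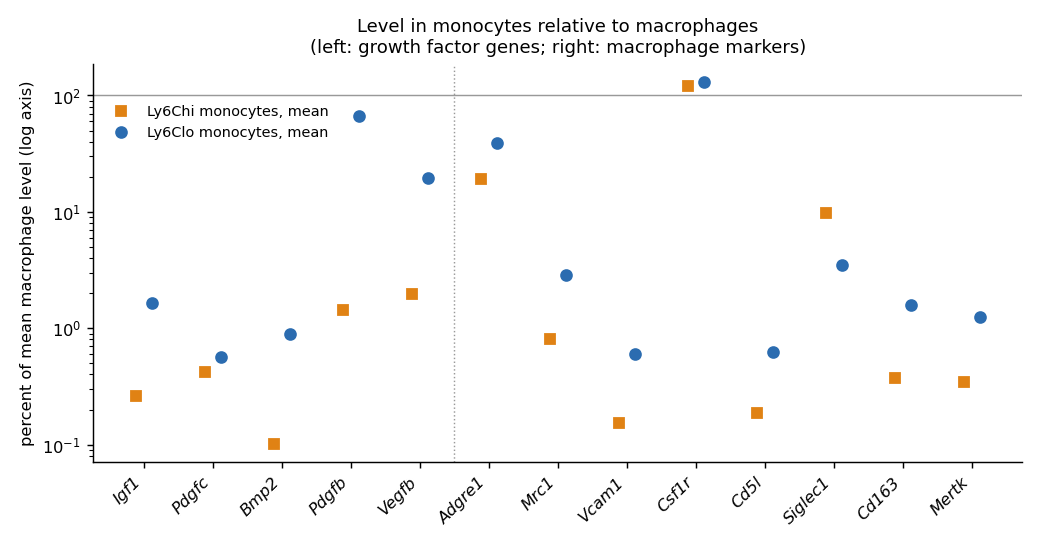
Mean level in Ly6Chi (squares) and Ly6Clo monocytes (circles) as a percent of the mean level in the 6 macrophage libraries, on a log axis, for 5 growth factor genes and 8 macrophage markers; the grey line marks 100%. Igf1 in Ly6Clo monocytes (1.64%) lies among the macrophage markers, and Pdgfb (67.3%, or 30.4% without Ly6Clo replicate 2) lies below Csf1r (131%).

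The remaining ligands, receptors and processing proteins of the same pathways were taken from lists of 30, 23 and 30 genes. Between macrophages and monocytes, DESeq2 called 12 of 23 other ligands tested (10 higher and 2 lower in macrophages), 12 of 21 receptors (6 higher and 6 lower) and 6 of 25 activators and binding proteins (2 higher and 4 lower). The median log2 fold changes of the lists were 1.35, 0.117 and 0.397, against the 0.0782 of all tested genes. Together 30 of 69 passed (43.5%), where 20.7% of all tested genes were called higher and 15.3% lower, and edgeR called 23 of 65 (35.4%) against 35.6% of all genes. Higher ligands included Gdf15 (log2 fold change 7.92), a stress-induced TGF-beta family member, Fgf1 (7.37), Hbegf (6.23) and Kitl (6.05), the stem cell factor on which blood stem cells depend. Kitl had 1203 to 5380.1 normalized counts in macrophages and 6.07 to 145 in monocytes. The ligands called lower were Inhba (-2.69), a subunit of activin, and the lymphatic factor Vegfc. Vegfc was not lower across all groups: its means were 0 in eYFP+ and 28 in eYFP- macrophages, 9.51 in Ly6Chi and 237 in Ly6Clo monocytes. Fgf1 stood at 8.35 without Ly6Clo replicate 3, and Inhba at -3.34 without eYFP- replicate 2.

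Of the members' own receptors, Flt1, Igf1r and Bmpr2 were lower in macrophages in both tools. Flt1, the receptor for VEGFB, was lower in macrophages (-6.74 ± 0.58, SE; DESeq2 adjusted p = 1.03e-29), with 0 to 29.8 normalized counts against 817 to 1510.0 in monocytes. Igf1r was lower as well (-1.71 ± 0.43; adjusted p = 3.32e-04), with 44.4 to 239.5 against 225 to 750.3, so the ranges overlapped. The BMP receptor Bmpr2 (-1.25 ± 0.33), the LIF receptor Lifr (-3.24 ± 0.31) and the TGF-beta co-receptor Tgfbr3 (-3.53 ± 0.53) were lower too. Higher in macrophages were the type I receptor Acvrl1 (2.06 ± 0.41), its partner Eng (2.12 ± 0.73), Igf2r (1.48 ± 0.30) and Nrp2 (1.37 ± 0.33). Eng did not pass without eYFP+ replicate 1 (adjusted p = 0.0767), Ly6Clo replicate 1 (0.0712) or Ly6Clo replicate 3 (0.0532). Csf1r was high in all groups, with means from 86558 to 118501, and did not pass (-0.33 ± 0.45; adjusted p = 0.631). Met, the receptor of HGF, had means of 1326 in Ly6Chi and 182 in Ly6Clo monocytes and of 3.89 and 26.8 in eYFP+ and eYFP- macrophages. It has no DESeq2 adjusted p, having been set aside for a count far from its group, and the edgeR adjusted p was 1.92e-04 for macrophages against monocytes. Pdgfra was higher in macrophages (3.81 ± 1.17) at a mean of only 15 normalized counts, and Tgfbr2 (1.33 ± 0.48) and Pdgfrb (-1.24 ± 0.48) were called by DESeq2 (adjusted p = 0.0181 and 0.0315) but not by edgeR (adjusted p = 0.0574 and 0.0681). Kdr, Tgfbr1, Osmr and Il6st were not called. Among the processing proteins, Thbs1 (-5.40), which can activate latent TGF-beta, was lower in macrophages. The HGF-activating protease St14 was called at -1.10 (DESeq2 adjusted p = 0.0128), with means of 18.1 in eYFP+ and 76.4 in eYFP- macrophages, 88.6 in Ly6Chi and 72.5 in Ly6Clo monocytes. The St14 call was lost without eYFP- replicate 1 (adjusted p = 0.0562) or Ly6Clo replicate 3 (-0.77, adjusted p = 0.0657), and with limma. Thbs1 stood at -6.59 without eYFP+ replicate 2 and at -6.85 without eYFP- replicate 2, and had no adjusted p when any Ly6Chi library was left out. Furin, a protease that cleaves TGF-beta and other precursors, was called lower by DESeq2 (-0.87 ± 0.35, SE; adjusted p = 0.0395) and not by edgeR (adjusted p = 0.0558), with 199.9 to 845 normalized counts in macrophages and 608 to 1391 in monocytes. Its call was also lost with limma (adjusted p = 0.0736 and 0.0877 with pseudocounts of 1 and 0.1), without independent filtering (0.0765), and when any 1 of 8 libraries was left out (adjusted p from 0.0558 to 0.118), among them all 3 Ly6Chi libraries.

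**Figure D5:**
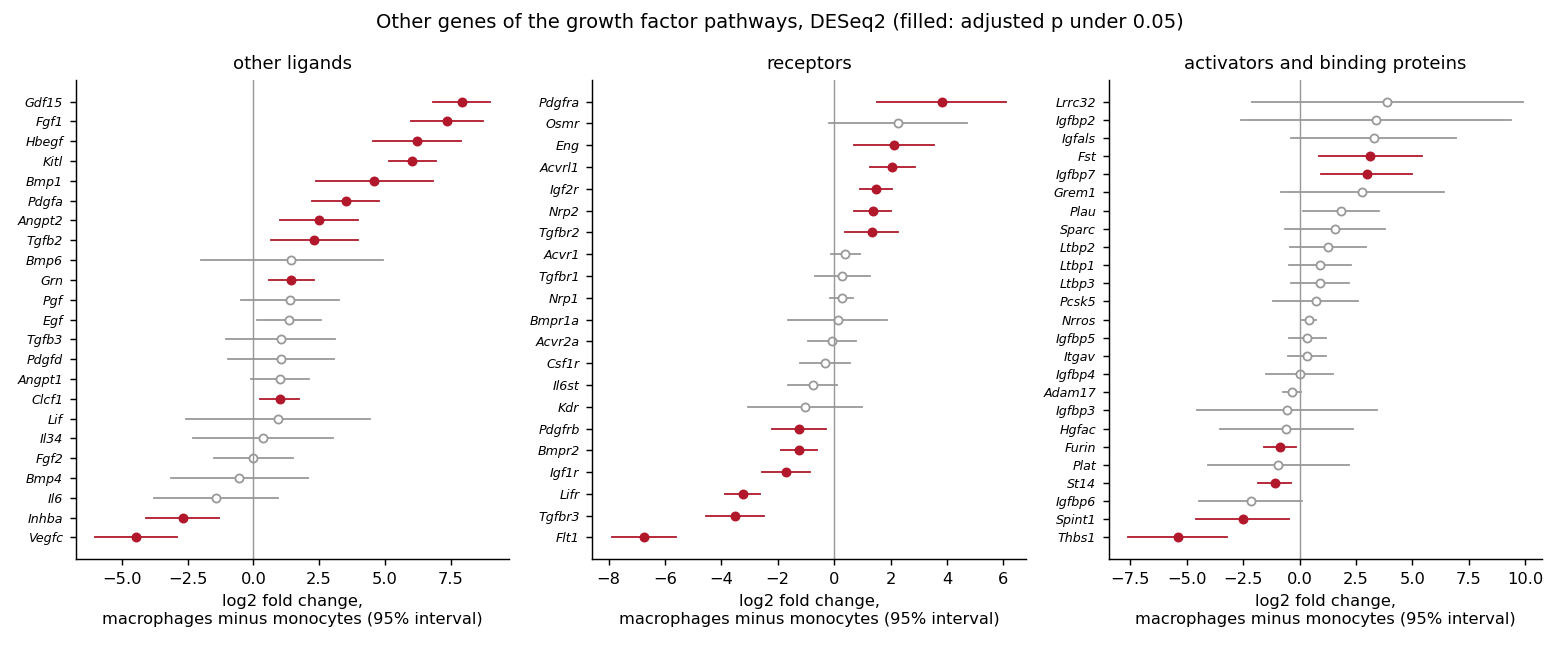
Log2 fold change (points) with the 95% interval (lines) of macrophages minus monocytes for the tested genes of the 3 pathway lists (23 other ligands, 21 receptors, 25 activators and binding proteins); filled points have a DESeq2 adjusted p under 0.05. Gdf15, Fgf1, Hbegf and Kitl head the ligands, and Flt1 has the lowest value among the receptors.

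Between macrophage origins, 4 of the 69 tested pathway genes were called (5.8%, against 2.07% of all tested genes), all lower in eYFP+ macrophages. The edgeR count was 0 of 65 (0.334% of all genes), with 12 at an unadjusted p under 0.05 (7.42% of all genes). These 4 were Vegfc, Angpt1, Igfbp5 and St14. Angpt1, the TIE2 ligand made by niche cells and megakaryocytes, had 12.6 to 83.9 normalized counts in eYFP+ and 264 to 889.6 in eYFP- libraries (-3.32 ± 0.79, SE; DESeq2 adjusted p = 0.00265, edgeR adjusted p = 0.167), and it did not pass without eYFP- replicate 2 (adjusted p = 0.0552). Igfbp5, which binds IGF1 outside the cell, had 13.3 to 28.6 against 141 to 204 (-3.07 ± 0.58; DESeq2 adjusted p = 4.56e-05, edgeR adjusted p = 0.0698). Vegfc had no read in the 3 eYFP+ libraries and 11, 37.9 and 35.1 normalized counts in the eYFP- libraries, at least 10.3-fold lower when 3 counts are allowed in each eYFP+ library (DESeq2 adjusted p = 2.73e-05, edgeR adjusted p = 0.0502). St14 (-2.06 ± 0.55; DESeq2 adjusted p = 0.0124) lost its call in 4 of the 12 fits that leave out 1 library: without eYFP+ replicate 1 (adjusted p = 0.0801) or 2 (0.0811), or eYFP- replicate 1 (0.0614) or 3 (0.165). The stromal and endothelial marker sums given above also differed without overlap between these groups. Their part in the levels of Angpt1 and Igfbp5 was not tested.

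Between monocyte subsets 11 of 69 pathway genes were called (15.9%, against 8.82% of all tested genes), 4 higher and 7 lower in Ly6Chi, and edgeR called 4 of 65 (6.15%, against 4.32%). Passing in both tools, Vegfc (-4.63 ± 0.77), Clcf1 (-2.43 ± 0.54), Nrp2 (-2.41 ± 0.47) and Tgfbr3 (-3.64 ± 0.74) were lower in Ly6Chi monocytes. Tgfbr3 had 121 to 409 normalized counts in Ly6Chi and 2389 to 5497 in Ly6Clo libraries. Thbs1 had 5050.2 to 18668 against 21.4 to 289 and was higher in Ly6Chi (6.20 ± 1.57, SE; DESeq2 adjusted p = 0.00225, edgeR adjusted p = 0.0559). Angpt1 (-2.96 ± 0.80) and Kitl (-2.10 ± 0.66) passed in DESeq2 (adjusted p = 0.00478 and 0.0207) and not in edgeR (adjusted p = 0.0911 and 0.115). Angpt1 did not pass without Ly6Clo replicate 2 (-2.09, adjusted p = 0.0652), and Kitl did not without Ly6Chi replicate 2 (-2.09, adjusted p = 0.0855), Ly6Chi replicate 3 (-1.67, adjusted p = 0.131) or Ly6Clo replicate 2 (-1.59, adjusted p = 0.0978). Hbegf was also counted as called (DESeq2 adjusted p = 0.0446, edgeR adjusted p = 0.136), but it had only 19 reads over the 3 Ly6Chi and 1 read over the 3 Ly6Clo libraries, so no fold is given. It lost its call without replicate 2 or 3 of either macrophage group (adjusted p from 0.0561 to 0.0607), Ly6Chi replicate 1 (0.104) or 3 (0.2), or Ly6Clo replicate 2 (0.129) or 3 (0.13). Without Ly6Chi replicate 1, Angpt1 stood at -3.68 and Kitl at -2.75. Without Ly6Chi replicate 3 the count of called pathway genes was 6.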

How the data were processed

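RNA-seq was run on 12 libraries in 4 groups of 3 from amplified cDNA without molecular identifiers. The authors demultiplexed reads with bcl2fastq 2.20.0.422, trimmed and corrected them, removed ribosomal reads, aligned them with segemehl to GRCm39 and counted pairs per Ensembl gene with featureCounts; the strand setting is not given in the sources used here. The deposited counts are raw, the deposited TPM values were computed by the authors from them, and the deposited variance-stabilised values are on a log2-like scale. Total counts were 26390927 to 48618187 per library.

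Differences in counts were assessed by DESeq2 (version 1.42.0; R 4.3.3) with 1 Wald fit over 12 libraries on group, median-of-ratios size factors, independent filtering and Benjamini-Hochberg adjustment over all tested genes; the threshold was an adjusted p of 0.05. SE is the standard error of the fitted log2 fold change. Alternatives were edgeR 4.0.16 (quasi-likelihood), limma 3.58.1 on log2(TPM + 1), log2(TPM + 0.1) and the variance-stabilised values, other size factors and filters, GC correction, the replicate number as a block, and leaving out each library. The scripts were tested on simulated data, and tables were joined with pandas 2.3.3 in Python 3.11.15.

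The members and all gene lists were chosen with earlier results of these data known. From each pathway list and comparison, up to 4 genes per direction with the lowest adjusted p and a mean of at least 50 normalized counts were named, beside the members' receptors. Replicate numbers were checked over the 2000 genes of highest mean: deviations of same-numbered eYFP+ and eYFP- libraries correlated in each pair (r = 0.456, 0.332 and 0.152), so the numbers were taken to pair the macrophage libraries. This is an assumption, since what the numbers stand for is not stated. Single pairs of other groups also correlated, such as replicate 3 of eYFP- macrophages and Ly6Chi monocytes (r = 0.277). Sample numbers in the column names run consecutively within each replicate number, across all groups. The main fit did not use the pairing. Symbols were found for 91.4% of identifiers. Promoter windows of 250 bases before the RefSeq start were searched. Windows that overlap an annotated UTR were searched as well but not printed in full, and the windows used for comparison were not filtered for UTRs. Gene coordinates on GRCm39 were not used here.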

Additional observations from a re-analysis of the deposited data

How the results depend on the processing

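Of 816 alternative values for the 31 member differences that passed the test, 784 kept direction and call, 32 kept direction and lost the call, and 0 changed direction; Bmp2 had no adjusted p in the 3 fits without an eYFP+ library, which are not among the 816. The cause of the changes below was not tested. Vegfa had at most 5 reads in any library, and Bmp2, Pdgfc and Vegfb had 0 to 61, 0 to 57 and 0 to 56 reads in monocyte libraries; whether deeper sequencing would change their calls was not tested. Restricting the fit to the libraries compared could not differ for macrophages against monocytes, which use all 12.

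Between macrophage origins, the 4 pathway calls became 0 with edgeR, 0 with edgeR and the replicate block, 8 with the macrophage libraries alone, 2 with limma on log2(TPM + 1), 0 on log2(TPM + 0.1), and 3 to 6 when 1 library was left out. Between monocytes, 11 became 4 with edgeR, 1 with edgeR and the replicate block, 5 with limma under either pseudocount, and 6 to 14 when 1 library was left out. For macrophages against monocytes, 30 became 23 to 34 when 1 library was left out. The member calls against Ly6Clo monocytes, 5 in each macrophage group, ranged from 3 to 6 in both when 1 library was left out. The count was 3 without eYFP+ replicate 3 in both groups, and in eYFP+ also without eYFP+ replicate 2; Bmp2 was untested in these fits.

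With the replicate block in DESeq2, no member call changed between macrophage origins, between monocytes or for macrophages against monocytes. Between monocytes, Vegfb lost its call with the block in edgeR (adjusted p = 0.257), which also did not call it without the block, and Csf1 gained a call with GC correction and the block (2.18, adjusted p = 0.0312). Same-numbered Ly6Chi and Ly6Clo libraries did not all correlate (r = 0.307, 0.0314 and -0.0111), and those of eYFP+ macrophages and Ly6Clo monocytes gave -0.649, -0.654 and 0.442, so numbers were not taken to pair these. Against Ly6Clo monocytes the block left 4 of 5 members called, without Vegfb (DESeq2 adjusted p = 0.0637 in eYFP+ and 0.053 in eYFP- macrophages).

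Signs changed only for members that did not pass. Between macrophage origins, Vegfb (0.04) became -0.04 with total-count scaling, -0.09 and -0.11 with the replicate block in DESeq2 and edgeR, and -0.22 to 0.43 when 1 library was left out. Bmp2 (0.16) became -0.23, -0.27 and -0.22 with limma on log2(TPM + 1), log2(TPM + 0.1) and variance-stabilised values. Csf1 (-0.14) became 0.02 with GC correction and replicate block, and -0.41 to 0.32 when 1 library was left out, and Tgfb1 -0.05 to 0.43. Between monocytes, leaving out 1 library gave -1.94 to 0.45 for Pdgfc and -6.42 to 1.74 for Bmp2. For macrophages against monocytes it gave -0.02 to 0.55 for Csf1. Against Ly6Clo monocytes, Pdgfb became -0.23 in eYFP+ and -1.18 in eYFP- macrophages with GC correction, -0.49 in eYFP- with the replicate block added, and -0.15 to 1.38 in eYFP- when 1 library was left out. Osm in eYFP- macrophages became -0.37 with GC correction, -0.37 with the replicate block added, and -0.03 to 0.34 when 1 library was left out.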
